A study of Mus musculus with 8 samples.

Results

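The 10 genes described here are Adipoq, Lep, Plin1, Fabp4, Cidec, Lpl, Pparg, Cfd, Retn and Ucp1, which are used as genes of fat cells in the skin. They were taken by their symbol from a table of 18540 genes, and all 10 were found in it. The table came from RNA sequencing of mouse wound skin, with 4 control samples and 4 samples treated with Z1C2Z. Z1C2Z is the form of the composite ZnO2/CeO2@ZIF-8 (ZCZ) that holds more CeO2 relative to ZnO2. In the wound experiments, full-thickness wounds of 10 mm were made on the back, a pair on each mouse, and the composite was injected around the wound at 100 μg/kg. Control wounds received the same volume of PBS. The sequenced skin came from mice treated for 15 days, and no separate time was given for the control samples. Wounds were made both in C57BL mice and in db/db mice, which are diabetic because their leptin receptor is mutated, and the strain of the sequenced mice was not given in the sources used here. Whether samples came from the same mouse was not given either, so the p-values measure only the spread between these samples.

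The skin of the mouse holds a layer of white adipocytes below the dermis, which grows and shrinks with the hair cycle and takes part in wound repair. PPARγ, the product of Pparg, is the nuclear receptor that drives fat cell differentiation together with the C/EBP factors, and it activates many genes of the mature fat cell. Mature fat cells store triglyceride in a single lipid droplet and secrete hormones such as adiponectin (Adipoq) and leptin (Lep).

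The sequences before the starts of Adipoq and Lep are shown because these genes encode the hormones best known from fat cells and the ratio of Lep to Adipoq, given below, did not overlap between the groups. The table of RefSeq start sites used here, for the GRCm38.p6 build, held 11 start sites for 8 of the 10 genes. This table had no entry for Fabp4 or Lpl, which does not show that RefSeq has none. Each window holds the 250 bases before the start, from 5′ to 3′ on the strand of the gene. The Adipoq window is chr16:23146286-23146535 on the plus strand, and the Lep window is chr6:29059971-29060220 on the plus strand. Capitals mark matches to 5 motifs that were searched on both strands: the C/EBP palindrome TTGCGCAA, the nuclear receptor site AGGTCA, its direct repeat with 1 base between (DR1), the TATA box TATAAN and the CCAAT box.
Adipoq: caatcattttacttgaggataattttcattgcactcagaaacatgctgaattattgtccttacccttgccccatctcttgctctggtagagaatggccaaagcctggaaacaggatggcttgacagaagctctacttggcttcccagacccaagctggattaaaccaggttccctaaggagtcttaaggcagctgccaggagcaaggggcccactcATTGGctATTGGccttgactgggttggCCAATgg
Lep: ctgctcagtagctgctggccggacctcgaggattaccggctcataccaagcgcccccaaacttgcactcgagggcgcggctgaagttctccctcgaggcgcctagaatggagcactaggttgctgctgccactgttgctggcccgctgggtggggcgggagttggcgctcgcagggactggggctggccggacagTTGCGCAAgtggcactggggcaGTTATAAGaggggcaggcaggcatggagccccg
The Lep window held the C/EBP palindrome, which was found in 0.164% of the 32851 windows in the table and in 1 of the 11 windows of these genes. The Lep window also held the TATA box on both strands in overlapping positions, and 22.7% of all windows had this box. The Adipoq window held the CCAAT box at 3 places, and 33.8% of all windows had at least 1. The site AGGTCA was in 3 of the 11 windows, 2 of Pparg and 1 of Ucp1, against 14% of all windows, and the direct repeat was in 0 of 11, against 0.0335%. The site AGGTCA also lies within the direct repeat. A match describes the letters of these windows and shows no binding.

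The gene counts of a sample summed to between 28856790 and 38974888. Values are given as CPM, the share of a library's counts scaled by the TMM method. Of the 18540 genes, 15147 passed the low-count filter, and 9 of the 10 adipocyte genes were among them. All 12 adipocyte markers of a second list without the 10 genes (Adig, Plin4, Lipe, Slc2a4 and others) were detected, and their summed level was between 286 and 390 CPM in the control samples and between 313 and 357 CPM in the Z1C2Z samples. Acsl1 was the highest of the 12, with a mean of 113 CPM in the control group and 112 CPM in the Z1C2Z group. None of the 12 passed edgeR's test at an adjusted p under 0.05, against 8.13% of all tested genes. The log2 fold change was below 0 for 8 of the 12, against 48.9% of all tested genes. The hair shaft and root sheath markers set the groups apart most: their sum was between 527 and 3220 CPM in the control samples and between 3960 and 14600 CPM in the Z1C2Z samples.

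Adiponectin, coded by Adipoq (Entrez 11450), is a hormone that raises insulin sensitivity. Its level was 70.7, 50.7, 64.6 and 54.4 CPM in the control samples and 42.4, 55.0, 36.6 and 33.3 CPM in the Z1C2Z samples, listed here and below by sample number (1, 2, 3 and 5 for the control group, 1, 2, 4 and 5 for the Z1C2Z group). Z1C2Z-2 lay within the control range and the other 3 Z1C2Z samples lay below every control sample. The mean was 60.1 ± 9.17 CPM in the control group and 41.8 ± 9.57 CPM in the Z1C2Z group (SD, n = 4 each), a fitted fold of 0.696. The log2 fold change was -0.52 with a standard error of 0.17, and it did not pass edgeR's quasi-likelihood test (unadjusted p = 0.0131, Benjamini-Hochberg adjusted p = 0.0863). In bulk skin, fewer fat cells and less RNA per fat cell cannot be told apart.

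Cfd (Entrez 11537) encodes adipsin, a complement protease that fat cells secrete. Its level was 171, 102, 144 and 125 CPM in the control samples and 92.0, 131, 89.7 and 83.0 CPM in the Z1C2Z samples. Again Z1C2Z-2 lay among the control samples and the other 3 lay below all of them. For Cfd the log2 fold change was -0.45 with a standard error of 0.19 (edgeR unadjusted p = 0.0399, adjusted p = 0.157).

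Retn (Entrez 57264) encodes resistin, a hormone that mouse fat cells secrete and that lowers the response to insulin. Its level was 29.3, 17.7, 26.6 and 13.1 CPM in the control samples and 12.4, 23.1, 14.6 and 12.3 CPM in the Z1C2Z samples. The groups overlapped, since control-5 was nearly as low as the lowest Z1C2Z samples. For Retn the log2 fold change was -0.47 with a standard error of 0.29, and its 95% interval from -1.13 to 0.18 included 0.

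Leptin, coded by Lep (Entrez 16846), is the hormone that reports the fat store to the brain. Its level was 18.7, 6.30, 4.76 and 13.9 CPM in the control samples and 17.0, 18.2, 12.9 and 10.8 CPM in the Z1C2Z samples. The control samples split widely, with control-1 the highest of all 8 samples and control-2 and control-3 below every Z1C2Z sample. For Lep the log2 fold change was 0.44 with a standard error of 0.40 (edgeR adjusted p = 0.507), and the 95% interval ran from -0.47 to 1.34. Lepr, the gene of the leptin receptor, was at 58.1 ± 9.25 CPM in the control group and 57.1 ± 5.38 CPM in the treated group. With a log2 fold change of -0.02 it did not pass the test (edgeR adjusted p = 0.919), and the value became 0.06 when the libraries were scaled by their totals alone. Counts per gene do not separate the receptor's isoforms, of which the long one is lost in db/db mice.

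Plin1 (Entrez 103968) encodes perilipin 1, which coats the lipid droplet and holds back lipolysis. Its level was 16.24, 14.46, 19.97 and 14.98 CPM in the control samples and 13.59, 14.53, 9.516 and 9.87 CPM in the Z1C2Z samples. The groups met at control-2 and Z1C2Z-2, and the other 3 Z1C2Z samples were below the control range. For Plin1 it was -0.47 on the log2 scale with a standard error of 0.17 (edgeR unadjusted p = 0.0245, adjusted p = 0.119).

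Cidec (Entrez 14311) encodes a protein that fuses lipid droplets into larger ones. Its level was 56.1, 31.4, 46.9 and 41.9 CPM in the control samples and 33.6, 35.1, 28.8 and 23.9 CPM in the Z1C2Z samples. Only control-2 overlapped with the Z1C2Z samples. The log2 fold change was -0.54 with a standard error of 0.19 (edgeR unadjusted p = 0.0169, adjusted p = 0.0985), which was the most negative value of the 9 genes.

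Lpl (Entrez 16956) encodes lipoprotein lipase, which frees fatty acids from circulating lipoproteins, and it is also expressed in muscle and macrophages. Its level was 458, 317, 470 and 284 CPM in the control samples and 450, 598, 447 and 339 CPM in the Z1C2Z samples. Z1C2Z-2 was the highest sample and the other 3 lay within the control range. For Lpl the fit gave a log2 fold change of 0.26 with a standard error of 0.21 (edgeR adjusted p = 0.445), and it was 0.11 without Z1C2Z-2 and 0.15 without control-5.

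Fabp4 (Entrez 11770) encodes the fatty acid binding protein of fat cells, which capillary endothelium and macrophages express as well. Its level was 382, 364, 421 and 428 CPM in the control samples and 366, 586, 440 and 276 CPM in the Z1C2Z samples. The control samples lay close together, and Z1C2Z-2 and Z1C2Z-4 were above them while Z1C2Z-5 was below them. The log2 fold change was 0.06 with a standard error of 0.20 (edgeR adjusted p = 0.859).

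Pparg (Entrez 19016) was at 24.9, 17.9, 22.3 and 20.2 CPM in the control samples and at 16.5, 23.1, 21.5 and 22.2 CPM in the Z1C2Z samples. The groups covered nearly the same range. The log2 fold change was -0.03, with a 95% interval from -0.35 to 0.28, and its sign turned when the libraries were scaled by their totals alone (0.06).

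Ucp1 (Entrez 22227) encodes the uncoupling protein that makes heat in brown and beige fat. It had 0, 0, 0 and 1 counts in the control samples and 5, 0, 0 and 1 counts in the Z1C2Z samples. These counts were under the filter for low counts, so Ucp1 was not tested. A count of 0 allows a level of up to 3 counts, which is between 0.0753 and 0.107 CPM in these libraries, and this covers counting error only.

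**Figure D1:**
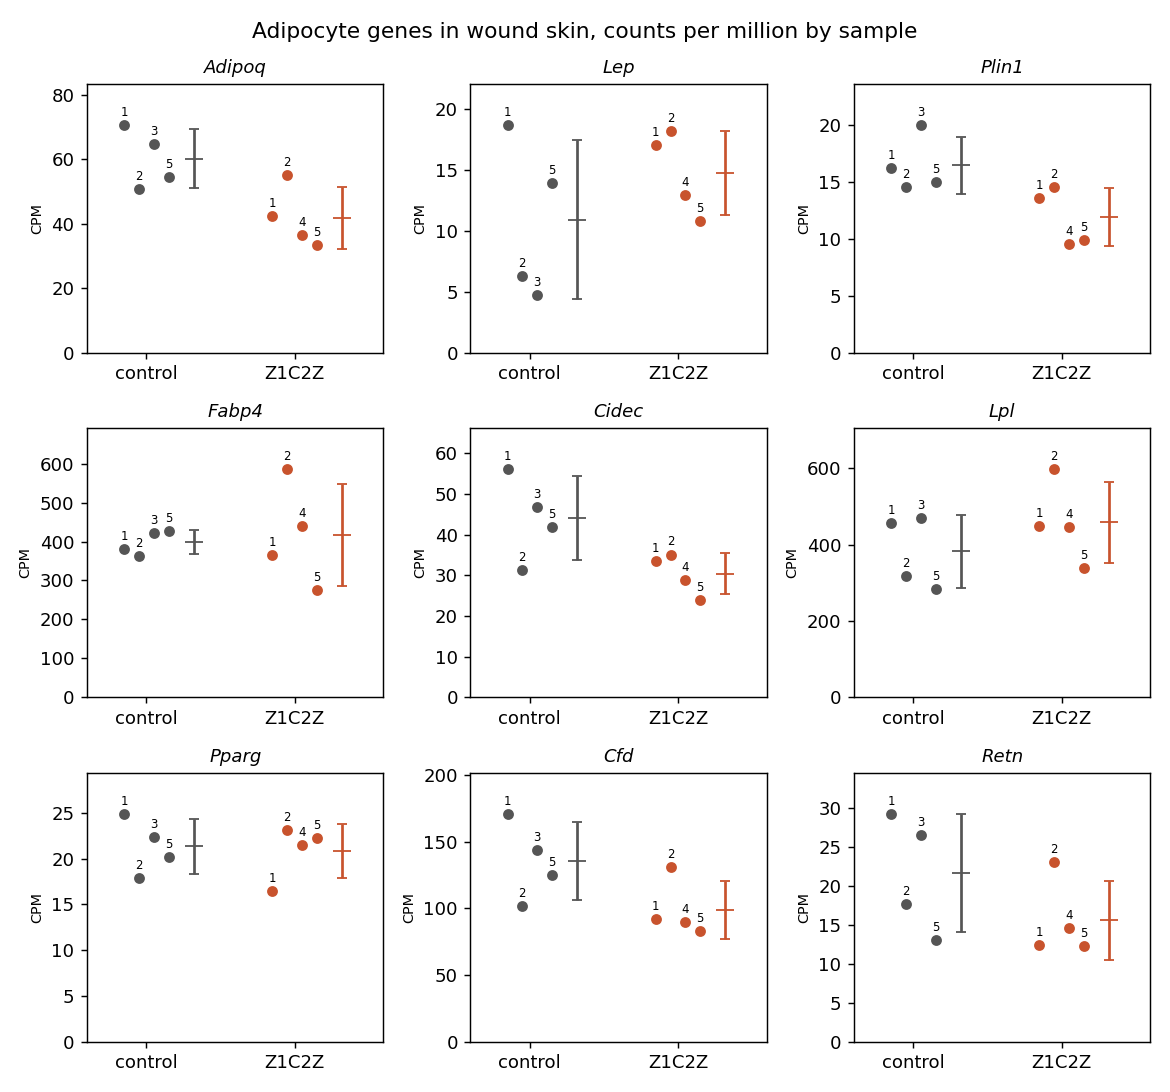
Level of the 9 adipocyte genes that passed the low-count filter, in CPM (TMM scaled, each panel from 0), in the control samples (grey) and the Z1C2Z samples (orange), with sample numbers at the points and the mean ± SD beside them. Z1C2Z-1, Z1C2Z-4 and Z1C2Z-5 lie below all control samples for Adipoq, Cfd and Plin1, while Z1C2Z-2 does not, and Lep is lowest in control-2 and control-3.

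Of the 9 genes, 0 passed edgeR's test at an adjusted p under 0.05, where 8.13% of all tested genes did. At an unadjusted p under 0.05, 4 of the 9 were lower (Adipoq, Plin1, Cidec and Cfd), against 15.2% of all tested genes, and 0 were higher, against 12.8%. In CPM, 0 of the 9 had groups that did not overlap, against 17.3% of all tested genes. Without Z1C2Z-2 this count was 3 of 9, against 19.2% of all genes, and without control-2 it was 2 of 9, against 21.3%, and leaving out a sample makes overlap less likely for any gene. The log2 fold change was below 0 for 6 of the 9 genes and for 48.9% of all tested genes, with a median of -0.45 over the 9 and 0.01 over all tested genes. No value reached a change of 1 on the log2 scale in either direction, and the widest interval was that of Lep. With DESeq2 in place of edgeR, 2 of the 9 passed (Adipoq with an adjusted p of 0.0278 and Cidec with an adjusted p of 0.037), against 18.1% of all genes, so their share was near that of all genes.

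**Figure D2:**
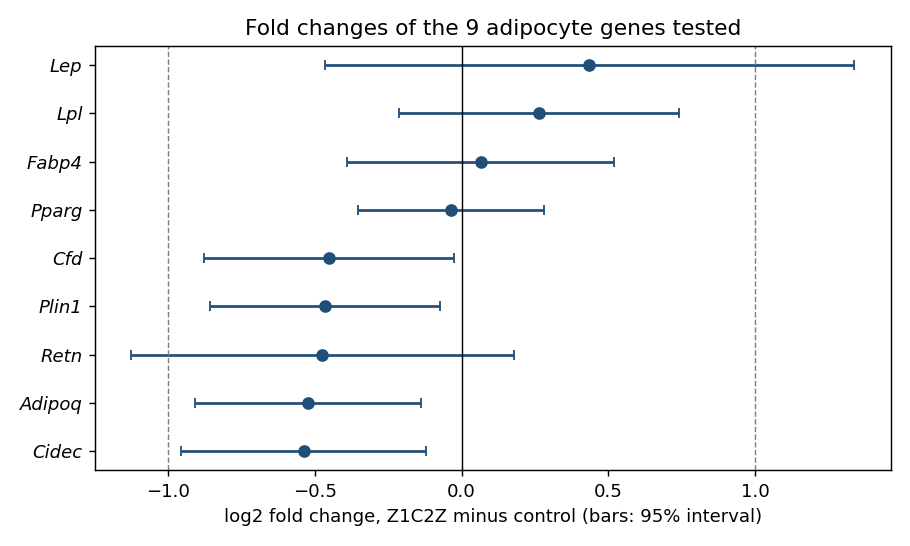
Log2 fold change of each tested adipocyte gene, Z1C2Z minus control, with its 95% interval from edgeR's fit and dashed lines at a change of 1 in either direction. Cfd, Plin1, Adipoq and Cidec have intervals below 0, from -0.54 for Cidec to -0.45 for Cfd, and the intervals of the other 5 genes include 0.

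The levels of the genes were set beside each other per kilobase of exon, with exon lengths from GENCODE M21, since the annotation used by the authors is not given in the sources used here. In the control group, Fabp4 was the highest at 445 ± 34.3 CPM per kb, followed by Cfd at 147 ± 31.7 and Lpl at 92.9 ± 23.2 (SD, n = 4). Adipoq at 46.5 ± 7.11, Cidec at 25.1 ± 5.87 and Retn at 13.7 ± 4.79 CPM per kb came next. Pparg at 8.97 ± 1.26, Plin1 at 4.24 ± 0.642 and Lep at 3.35 ± 2.01 CPM per kb were the lowest, above Ucp1. The means of Retn and Pparg, and those of Plin1 and Lep, differed by less than the larger of their SDs. In the Z1C2Z group the order was the same except that Lpl, at 111 ± 25.8 CPM per kb, lay beside Cfd at 107 ± 23.6, within their SDs, and Lep, at 4.52 ± 1.06, lay above Plin1 at 3.07 ± 0.657 in all 4 samples. Fabp4 and Lpl together made up between 68.5% and 80.6% of the summed CPM of the 9 genes, so a sum over the genes mainly follows these 2.

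To see how the genes moved relative to each other, the ratio of each gene to Plin1, the droplet coat gene, was taken within each sample. Lpl was the 1 gene of 8 whose log2 ratio to Plin1 did not overlap between the groups. It was 4.81, 4.45, 4.55 and 4.24 in the control samples and 5.04, 5.36, 5.55 and 5.10 in the Z1C2Z samples. The mean difference was 0.75 log2 units (exact two-sided permutation test, p = 0.0286, not adjusted over the 8 ratios), and 0.0286 is the smallest p that 4 samples against 4 allow. Among all tested genes, 26.7% had a ratio to Plin1 without overlap, and 26.5% had a higher one. The ratio of Lep to Plin1 differed by 1.09 log2 units with overlap (exact permutation p = 0.0571). The ratios of Adipoq, Cidec, Cfd and Retn to Plin1 differed by -0.06, -0.05, 0.03 and 0.02 log2 units.

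With Adipoq in place of Plin1 as the reference, 4 of 8 ratios did not overlap, those of Lep, Lpl, Fabp4 and Pparg, and all 4 were higher in the Z1C2Z samples. Of all tested genes, 31.3% were higher relative to Adipoq without overlap. For each CPM of Adipoq the control samples held 0.264, 0.124, 0.0738 and 0.255 CPM of Lep and the Z1C2Z samples held 0.402, 0.330, 0.352 and 0.323 CPM. The lowest Z1C2Z sample was thus above the highest control sample, although the levels of Lep itself overlapped. The log2 differences were 1.15 for Lep, 0.81 for Lpl, 0.55 for Fabp4 and 0.50 for Pparg, each with the smallest possible exact permutation p of 0.0286, not adjusted. The ratio of Pparg to Adipoq was between 0.346 and 0.371 in the control samples and between 0.389 and 0.666 in the Z1C2Z samples. The ratios of Plin1, Cidec, Cfd and Retn to Adipoq differed by 0.06, 0.01, 0.09 and 0.08 log2 units and overlapped. A ratio shows unequal change between 2 genes, and does not show which of them changed.

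**Figure D3:**
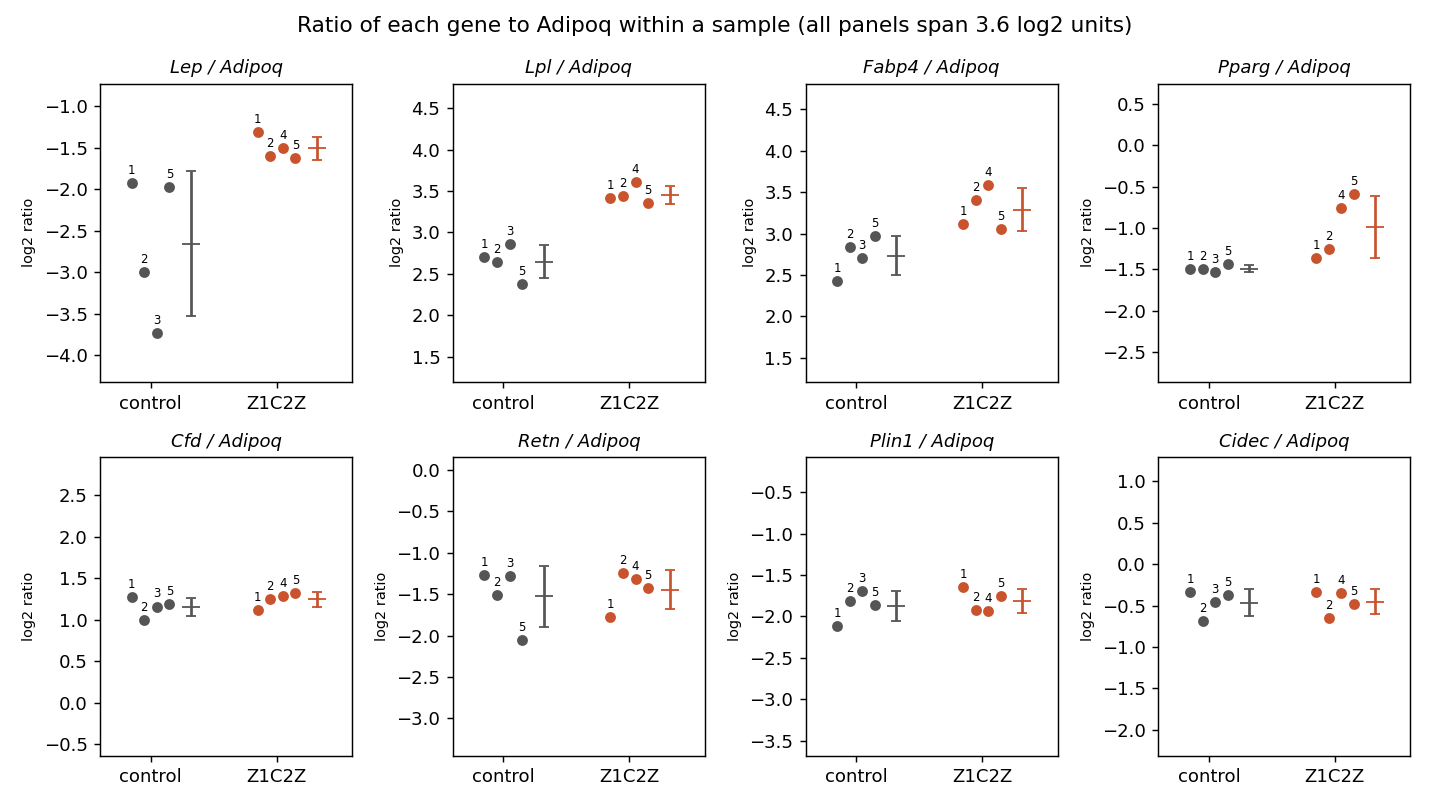
Log2 ratio of each adipocyte gene to Adipoq within a sample, in the control samples (grey) and the Z1C2Z samples (orange), with sample numbers at the points and the mean ± SD beside them. The groups are apart for Lep, Lpl, Fabp4 and Pparg in the upper panels and overlap for Cfd, Retn, Plin1 and Cidec in the lower panels.

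The pattern of each gene over the 8 samples was compared with that of Adipoq by the root mean square difference of log2 CPM after each gene was centred on its own mean, as a description. Cfd was the closest at 0.0992 log2 units, followed by Cidec at 0.132 and Plin1 at 0.144, and these 3 were closer than any of the 15138 other tested genes. The nearest of the others were Itgb1bp2 (0.146), Cstdc5 (0.161), Cetn4 (0.165), Prkag3 (0.165), Cavin4 (0.178) and Cpeb1 (0.179). Itgb1bp2, Prkag3 and Cavin4 are known from striated muscle, where they encode melusin, a subunit of the AMP-activated kinase and a caveolar coat protein. Retn lay at 0.270 from Adipoq, Pparg at 0.340, Fabp4 at 0.347, Lpl at 0.427 and Lep at 0.792. The distance of a gene with no change at all would be 0.357, so Lpl and Lep were farther from Adipoq than a flat line. The points share 8 libraries and the scaling of each library.

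The genes nearest to Lep were Serpina12 at 0.270 log2 units, Slc3a1 (0.301), Abhd3 (0.310), Ccdc38 (0.325), Rab11fip4 (0.333) and Gipc2 (0.343). A gene with no change at all would lie at 0.678 from Lep. Among the adipocyte genes, Lpl (0.663), Fabp4 (0.671) and Pparg (0.678) lay at about this distance. Cfd (0.744), Cidec (0.754), Adipoq (0.792), Plin1 (0.839) and Retn (0.886) lay farther away. Serpina12 encodes vaspin, a protease inhibitor secreted by fat cells and also made in the epidermis. It was at 67.2, 29.1, 23.6 and 37.6 CPM in the control samples and 65.2, 57.6, 57.8 and 41.1 CPM in the Z1C2Z samples. Like Lep, it was high in control-1 and lowest in control-2 and control-3, and the groups overlapped (edgeR adjusted p = 0.314). Slc3a1 and Ccdc38 were at low levels, under 2.5 CPM in every sample.

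Around the 10 genes, 8 lists of genes that act in fat cells were counted, with 102 genes in the table and 100 tested. Of these 100 genes, 8 were lower and 1 was higher at an adjusted p under 0.05, against 3.85% and 4.28% of all tested genes. Taken in either direction, these 9 of 100 were near the 8.13% of all tested genes. Their median log2 fold change over the 100 was -0.16, against 0.01 over all tested genes. Of the 100, 71 lay below 0, against 48.9% of all tested genes. The 9 genes came from 7 of the 8 lists, and no list had more than 2. When any single one of control-5, Z1C2Z-4, Z1C2Z-2 and Z1C2Z-1 was left out, 0 of the 100 passed, and 0 of all genes tested passed edgeR's adjusted threshold either, while between 3100 and 4208 did so at an unadjusted p under 0.05. With the muscle marker level as a covariate, 0 of the 100 passed as well, and the count over all genes was not taken for this fit. The muscle marker sums did not overlap between the groups, so this fit cannot fully separate muscle level from treatment. The log2 fold change with this covariate was -0.82 for Pde3b, -0.83 for Cav1, -1.25 for Angptl4 and -0.89 for Icam1. It was -0.42 for Cd34, -0.97 for Cebpd and 0.39 for Scd2, and the values without the covariate are given below.

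Of 12 adipogenic transcription factors, 1 fell and 0 rose, against 3.85% and 4.28% of all tested genes. Cebpd, an early C/EBP factor of fat cell differentiation that inflammation also induces, was at 33.2, 17.0, 24.5 and 43.3 CPM in the control samples and 9.08, 11.7, 16.4 and 10.01 CPM in the Z1C2Z samples. All Z1C2Z samples were below all control samples, and the log2 fold change was -1.32 with a standard error of 0.29 (edgeR adjusted p = 0.0348). Cebpa, the C/EBP factor of the mature fat cell, was at 125 ± 11.8 CPM in the control group and 140 ± 18.0 CPM in the Z1C2Z group (adjusted p = 0.372). Rxra, the partner of PPARγ on DNA, was at 122 ± 4.43 and 134 ± 16.2 CPM (adjusted p = 0.420).

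Of 11 tested genes of the lipid droplet coat and its assembly, 1 fell and 0 rose, against 3.85% and 4.28% of all tested genes. The gene that fell was Cav1, the coat protein of caveolae, which is abundant in fat cells, endothelium and fibroblasts alike. It was at 478, 544, 589 and 675 CPM in the control samples and 366, 347, 317 and 404 CPM in the Z1C2Z samples, without overlap (log2 fold change -0.67, edgeR adjusted p = 0.0303). The endothelial markers summed to between 341 and 913 CPM in the control samples and between 306 and 567 CPM in the Z1C2Z samples. Of these 8 genes, 0 passed edgeR's adjusted test, against 8.13% of all tested genes. At an unadjusted p under 0.05, 4 were lower, against 15.2% of all tested genes. The fibroblast markers summed to between 54900 and 78100 CPM in the control samples and between 43100 and 60600 CPM in the Z1C2Z samples. Of these 7 genes, 2 were lower at an adjusted p under 0.05 (Dcn and Lum), against 3.85% of all tested genes. All 7 were lower at edgeR's unadjusted p under 0.05, against 15.2% of all tested genes. The part of these cells in the fall of Cav1 was not tested. Cavin1, which builds caveolae with it, was at 313 ± 35.9 and 282 ± 27.4 CPM (edgeR adjusted p = 0.406).

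Of 11 genes of lipolysis and its control, 1 fell and 0 rose, against 3.85% and 4.28% of all tested genes. Pde3b encodes the phosphodiesterase through which insulin holds back lipolysis. It was at 59.9, 54.4, 60.0 and 66.6 CPM in the control samples and 35.8, 27.8, 32.1 and 39.3 CPM in the Z1C2Z samples. Its groups were clearly apart, and the log2 fold change was -0.84 with a standard error of 0.12 (edgeR adjusted p = 0.028). Mgll and Abhd5, a monoglyceride lipase and the activator of the triglyceride lipase, had adjusted p-values of 0.954 and 0.469.

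Of 17 genes of fatty acid and triglyceride synthesis, 1 rose and 0 fell, against 4.28% and 3.85% of all tested genes. Scd2, a desaturase that makes monounsaturated fatty acids, was at 230, 333, 309 and 226 CPM in the control samples and 431, 423, 427 and 399 CPM in the Z1C2Z samples. All Z1C2Z samples were above all control samples (log2 fold change 0.61, edgeR adjusted p = 0.0352). Scd1, the desaturase of fat and sebaceous gland, was at 2002 ± 356 and 2049 ± 313 CPM (adjusted p = 0.911). Elovl6, which lengthens fatty acids, was at 534 ± 86.3 and 712 ± 63.7 CPM (log2 fold change 0.42, adjusted p = 0.0742).

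Of 13 genes of fatty acid and glucose uptake and the insulin response, 2 fell and 0 rose. Of all tested genes, 3.85% fell and 4.28% rose. Angptl4, a secreted inhibitor of lipoprotein lipase, was at 73.2, 94.2, 61.8 and 131 CPM in the control samples and 45.4, 34.8, 23.3 and 49.2 CPM in the Z1C2Z samples. It was lower in all Z1C2Z samples (log2 fold change -1.24, edgeR adjusted p = 0.0369), while Lpl itself, whose enzyme it inhibits, did not pass the test. Irs2, an adaptor of the insulin receptor, fell from 43.1 ± 14.4 to 24.4 ± 2.50 CPM without overlap (log2 fold change -0.82, adjusted p = 0.0461). Fabp5, which had the highest mean CPM of this list, was at 1305 ± 169 and 1279 ± 121 CPM (edgeR adjusted p = 0.899). Cd36, the fatty acid transporter, was at 294 ± 26.7 and 270 ± 40.5 CPM (adjusted p = 0.560).

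Of 12 tested adipokines and adipokine receptors, 1 fell and 0 rose, against 3.85% and 4.28% of all tested genes. Apln, the peptide apelin of fat cells and growing endothelium, was at 61.5, 34.4, 46.4 and 91.9 CPM in the control samples and 24.8, 18.1, 17.9 and 34.5 CPM in the Z1C2Z samples. Control-2 and Z1C2Z-5 met at the same level, and the log2 fold change was -1.30 (edgeR adjusted p = 0.0426). Apoe and Adipor1, a lipid carrier and a receptor of adiponectin, had adjusted p-values of 0.494 and 0.775.

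Of 12 tested thermogenic genes of brown and beige fat, 0 passed edgeR's adjusted test, against 8.13% of all tested genes. At an unadjusted p under 0.05, 1 was lower, against 15.2% of all tested genes. The median log2 fold change was -0.08. Elovl3, which sebaceous glands express as well as brown fat, was at 145 ± 27.2 and 150 ± 53.4 CPM (adjusted p = 0.904). Slc25a20, the carnitine carrier of mitochondria, was at 43.8 ± 3.45 and 44.2 ± 5.74 CPM (adjusted p = 0.948).

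Of 12 genes of adipocyte precursors, 2 fell and 0 rose, against 3.85% and 4.28% of all tested genes. Icam1, an adhesion molecule of committed precursors that inflamed endothelium also carries, was at 41.0, 36.4, 45.4 and 54.6 CPM in the control samples and 22.8, 23.6, 23.3 and 29.2 CPM in the Z1C2Z samples, without overlap (log2 fold change -0.84, edgeR adjusted p = 0.0299). Cd34, a surface protein of precursors and endothelium, fell from 363 ± 26.5 to 287 ± 16.5 CPM (log2 fold change -0.34, adjusted p = 0.0487), but this call held under only 3 of 16 alternatives and was lost, for example, without a low-count filter (adjusted p = 0.059) and with library totals alone (adjusted p = 0.101). Ly6a, which marks early precursors, was at 446 ± 20.6 and 341 ± 55.3 CPM (log2 fold change -0.39, adjusted p = 0.0741).

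**Figure D4:**
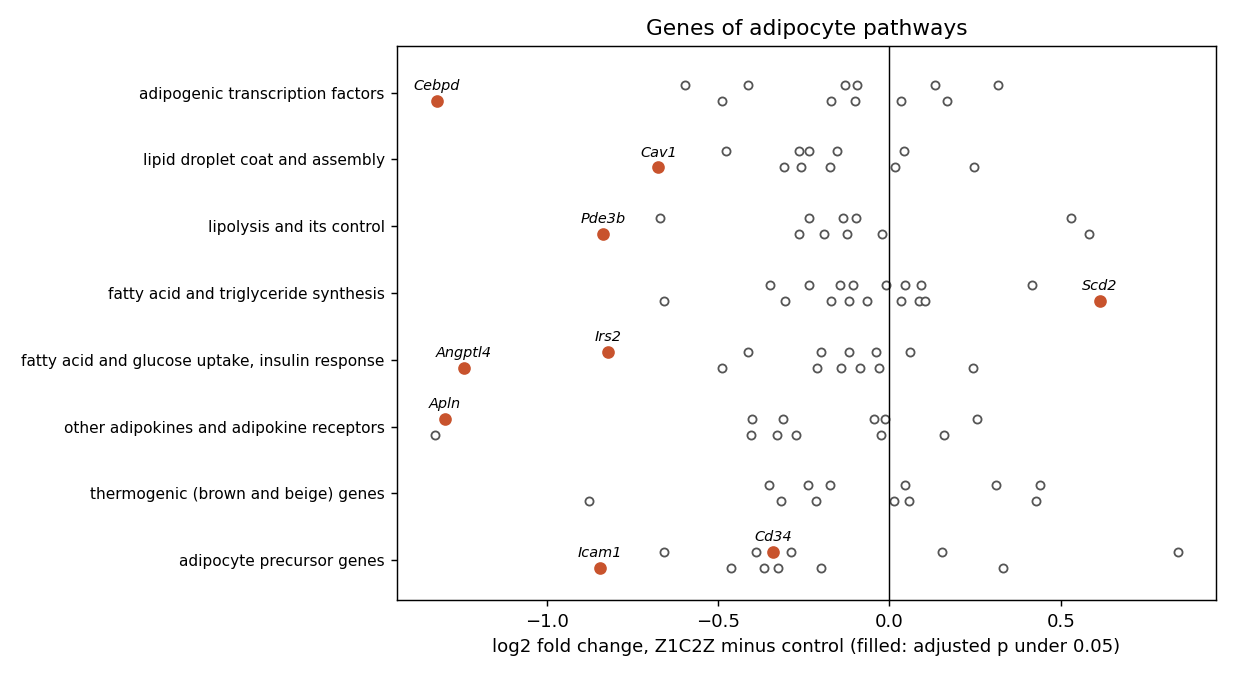
Log2 fold change (Z1C2Z minus control) of the 100 tested genes in 8 lists around the adipocyte genes, 1 point per gene, with genes at an adjusted p under 0.05 filled and named. The 9 named genes are Scd2 at 0.61 on the right and 8 genes on the left, from -0.34 for Cd34 to -1.32 for Cebpd.

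Among the marker lists of other cell types, the sums for skeletal muscle and for hair did not overlap between the groups. Those for keratinocytes, fibroblasts, endothelium, sebaceous gland, neutrophils and macrophages overlapped. The skeletal muscle markers summed to between 3830 and 7180 CPM in the control samples and between 3260 and 3670 CPM in the Z1C2Z samples. Of these 12 genes, 2 were lower (Acta1 and Myh1) and 0 higher at an adjusted p under 0.05, against 3.85% and 4.28% of all tested genes. Lower at edgeR's unadjusted p under 0.05 were 8 of the 12, and 0 were higher, against 15.2% and 12.8% of all tested genes. With the muscle marker level as a covariate in edgeR's fit, the log2 fold change was -0.40 for Adipoq (adjusted p = 0.309), -0.30 for Cidec (adjusted p = 0.437), -0.55 for Plin1 (adjusted p = 0.197) and -0.25 for Cfd (adjusted p = 0.540). The value for Lep became 1.63 with this covariate (edgeR adjusted p = 0.0744). Since the muscle marker sums themselves did not overlap between the groups, this fit cannot fully separate muscle level from treatment. Of the 12 hair markers, 11 rose at an adjusted p under 0.05, against 4.28% of all tested genes. All 9 tested adipocyte genes were highest in Z1C2Z-2 among the treated samples, and the hair marker sum was 14600 CPM in Z1C2Z-2 and 14300 CPM in Z1C2Z-4. The part of hair follicle content in these levels was not tested. The neutrophil markers summed to between 578 and 1500 CPM in the control samples and between 169 and 663 CPM in the Z1C2Z samples. Macrophage markers summed to between 1490 and 1950 CPM in the control samples and between 951 and 1590 CPM in the Z1C2Z samples. By edgeR, 0 genes of either list passed at an adjusted p under 0.05, against 8.13% of all tested genes. At an unadjusted p under 0.05, 4 of 6 tested neutrophil genes and 4 of 8 macrophage genes were lower, against 15.2% of all tested genes. The part of these cells in the levels of Lpl and Fabp4 was not tested.

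**Figure D5:**
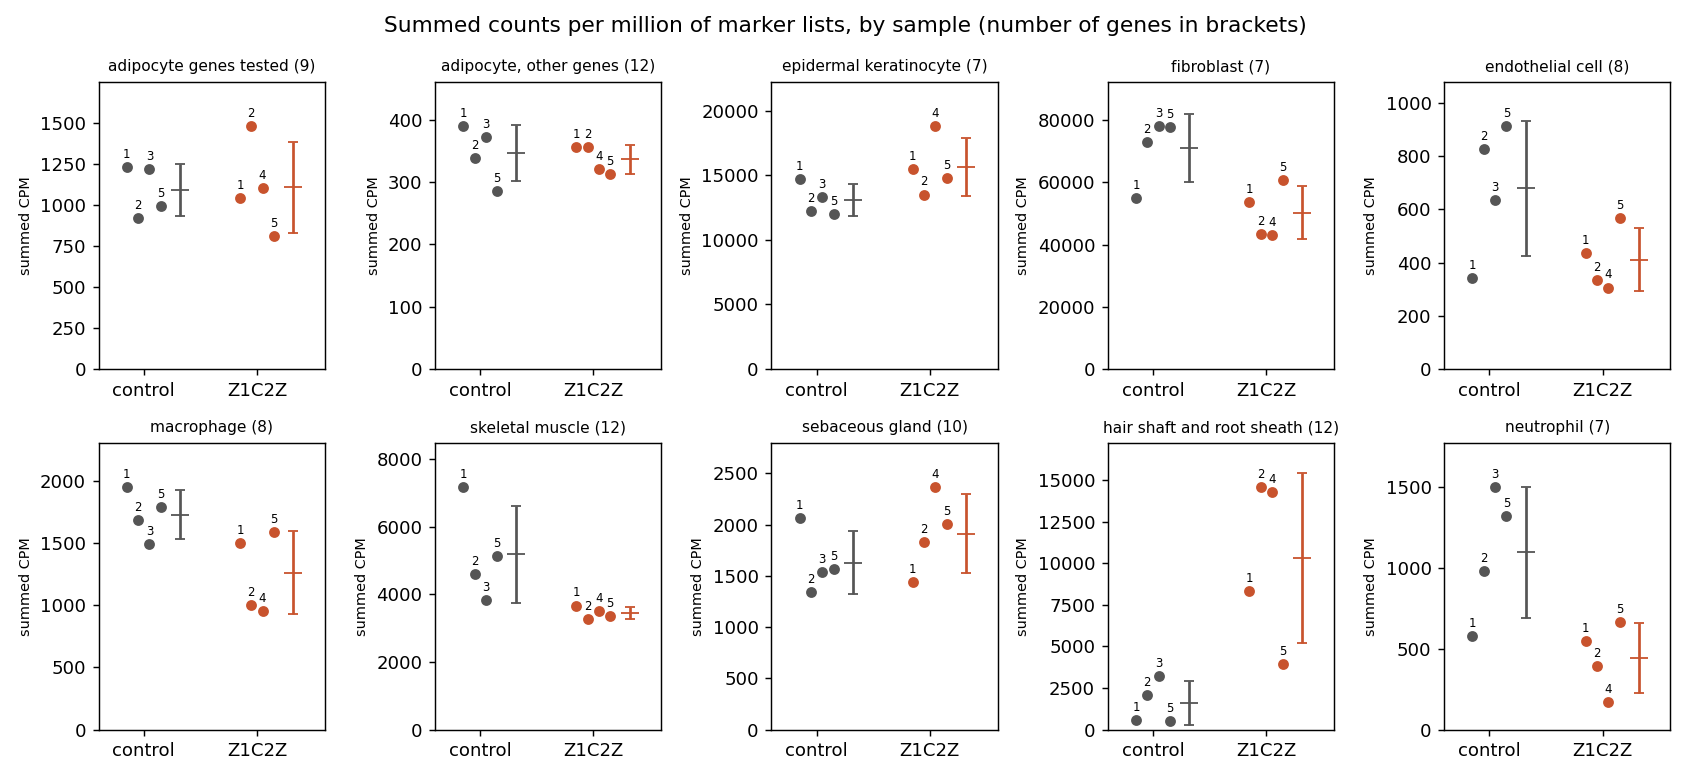
Summed CPM of marker lists in each control sample (grey) and Z1C2Z sample (orange), each panel from 0, with the mean ± SD beside the points and the number of genes in brackets. Hair markers are higher and skeletal muscle markers lower in all Z1C2Z samples, while the sums over the 9 adipocyte genes (between 810 and 1480 CPM) and over 12 other adipocyte markers overlap.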

How the data were processed

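The authors deposited raw read counts per gene, without normalization, in 1 table of 18540 genes with KEGG and GO annotation. Aligner, counter, build, gene annotation and strand setting are not given in the sources used here. The methods name a column kit for RNA extraction and the labels name Trizol, and the labels describe depletion of ribosomal RNA and dUTP in the second strand.

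Samples were grouped by their titles. The test was that of edgeR 4.0.16 in R 4.3.3 (filterByExpr, TMM, quasi-likelihood test, no covariates, Benjamini-Hochberg adjustment over 15147 genes), with a threshold of 0.05 on the adjusted p. Log2 CPM for ratios used a prior count of 2. Single ratios were compared by an exact permutation test over the 70 arrangements of the samples. Totals ranged from 28856790 to 38974888 counts, and no 2 libraries were alike within sampling noise (smallest chi-square per degree of freedom 21.8). The steps were tested on simulated counts.

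Named were the 10 genes, Lepr, up to 4 genes of each list that passed the test, with the 2 of highest mean CPM, and the 6 genes nearest to Adipoq and to Lep. Of the marker lists only the genes that bear on a result are named. The genes and lists were chosen with earlier results of these data known. Alternatives were DESeq2 1.42.0, RLE factors, library totals, other filters, a replicate block, a muscle covariate, an unadjusted threshold, each sample left out in turn, another prior count (0.5) or reference gene, and, chosen after seeing the data, the removal of Z1C2Z-2 and Z1C2Z-4 together.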

Additional observations from a re-analysis of the deposited data

Results flagged for a closer look

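In the Z1C2Z group, the log2 ratio of Cidec to Plin1 was 1.59 in Z1C2Z-4, apart from the other 3 samples of the group. Its gap to the nearest sample was 0.906 of the group's range, more than Dixon's test allows for 4 samples. This was 1 of 50 sets of 4 values examined, and chance marks about 1 set in 20. Cidec encodes a fusion protein of lipid droplets and Plin1 their coat protein, and Plin1 was lowest in this sample.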

How the results depend on the processing

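Adipoq, Plin1, Cidec, Cfd and Retn stayed below 0, and Lep and Lpl above 0, under all 16 alternatives for each, with log2 fold changes from -0.68 to -0.40 for Adipoq from 0.19 to 1.63 for Lep, from 0.0471 to 0.39 for Lpl and from -0.81 to -0.30 for Retn. The count of adipocyte genes that passed the test was 2 of 9 with DESeq2, against 18.1% of all tested genes. At an unadjusted p under 0.05 by edgeR it was 4 of 9, all lower, against 15.2% of all tested genes. It was 0 with each sample left out in turn, where between 0 and 1745 of all tested genes passed. The count without overlap was 1 of 9 with RLE factors, against 17.2% of all tested genes. With 1 sample left out it was between 0 and 3, against 18.9% to 30.2% of all tested genes. It was 3 without Z1C2Z-2 (19.2% of all genes) and 2 without control-2 (21.3%). Without Z1C2Z-2 and Z1C2Z-4 together, an alternative chosen after seeing the data, it was 4 (24.9% of all genes). The count of ratios without overlap was 4 of 8 with Adipoq as the reference, all higher, against 31.3% of all tested genes. Relative to Plin1 it was between 1 and 2 of 8 with 1 sample left out. The share of all genes was 26.7% with all samples and was not taken with 1 sample left out. Lpl relative to Plin1 was also without overlap at a prior count of 0.5.

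The list genes that passed numbered 16 of 100 with DESeq2, against 18.1% of all tested genes. At an unadjusted p under 0.05 by edgeR they numbered 28, with 5 higher and 23 lower, against 12.8% and 15.2% of all tested genes. They numbered 0 with the muscle covariate, a fit for which the count over all genes was not taken. The number was between 0 and 10 with 1 sample left out (3 without control-2), and 0 without Z1C2Z-2 and Z1C2Z-4 together. All tested genes that passed numbered 123 without control-2 and 2745 with DESeq2, against 1231. Cd34 kept its call under 3 of 16 alternatives and Irs2 under 6. The cause was not tested.

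The sign turned for Pparg with library totals (0.0561), with the muscle covariate (0.0724) and with 1 sample left out (-0.11 to 0.0718), and for Fabp4 with 1 sample left out (-0.14 to 0.22) and without the 2 Z1C2Z samples (-0.31). For Lepr it turned with library totals (0.0643), the muscle covariate (0.0989), 1 sample left out (-0.109 to 0.0693) and without the 2 samples (0.0591). The ratios to Plin1 turned with 1 sample left out for Adipoq (-0.118 to 0.0248), Cidec (-0.141 to 0.0823), Cfd (-0.0432 to 0.151) and Retn (-0.15 to 0.19), and without the 2 samples for Cfd (-0.12) and Retn (-0.25). Library totals alone moved the median of all genes to 0.10.

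The sample numbers 1, 2 and 5 occur in both groups. After the group mean was taken off, the correlation between samples that share a number was -0.10 for number 1, -0.06 for number 2 and 0.32 for number 5. The correlation between samples of unlike number was not computed, so these values cannot decide whether the numbers mark pairs. The main test did not use the numbers as a pairing. With the number as a replicate block, 554 genes in all and 5 of the list genes passed, 0 of the adipocyte genes did, Fabp4 was at -0.0034 and Lepr at 0.0357.

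With 4 samples a group and totals from 28856790 counts, the adjusted p of Adipoq ran from 0.0278 to 0.35 over 16 alternatives, and Ucp1 was too low to compare.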

Other observations

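Among the pathways that the deposited KEGG annotation assigns to fat cells, looked at after the values were seen, the PPAR signaling pathway had 65 tested genes, of which 3 rose and 2 fell at an adjusted p under 0.05 by edgeR. Of all tested genes 4.28% rose and 3.85% fell, so this count was near that of all genes. Slc27a6, a fatty acid transport protein, was at 8.85, 16.5, 20.9 and 8.62 CPM in the control samples and 44.8, 62.5, 51.8 and 24.6 CPM in the Z1C2Z samples (log2 fold change 1.74, adjusted p = 0.0309). Ehhadh, an enzyme of fatty acid oxidation in peroxisomes, was at 5.36 ± 0.784 CPM in the control group and 9.49 ± 1.38 CPM in the Z1C2Z group (log2 fold change 0.82, adjusted p = 0.0303). Both were higher in all 4 Z1C2Z samples than in any control sample. Acsl4, which activates long-chain fatty acids, fell by 0.66 on the log2 scale (adjusted p = 0.0426).

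The pathway of lipolysis regulation in adipocytes had 49 tested genes, of which 2 rose and 6 fell, against the same 4.28% and 3.85%. Ptgs2, the inducible cyclooxygenase, was at 537, 44.5, 34.6 and 776 CPM in the control samples and 29.2, 8.08, 5.73 and 31.6 CPM in the Z1C2Z samples (log2 fold change -4.22, edgeR adjusted p = 0.0495). All Z1C2Z samples were lower, but control-1 and control-5 were more than 10 times as high as control-2 and control-3. The same 2 control samples had the higher levels of Lep.

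The adipocytokine pathway, which holds Adipoq and Lep, had 64 tested genes, of which 1 rose and 10 fell, against 4.28% and 3.85% of all tested genes. The genes that fell act in cytokine and insulin signalling as well, in many cell types. Socs3, an inhibitor of the signal of leptin and of cytokine receptors, had the largest fall of the 10, from 117 ± 56.5 to 27.16 ± 10.02 CPM (log2 fold change -2.11, edgeR adjusted p = 0.0299), and Jak2 and Stat3, which carry that signal, had log2 fold changes of -0.93 and -0.77.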
